A study of Homo sapiens with 12 samples.

Results

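CD69, CD44, CD38, SLAMF1, SLAMF7, CD109, CD160 and CD200 encode surface proteins that T cells display or change on activation. They were taken by gene symbol, and all 8 had a row among the 2587 genes of the authors' deposited table. Their mRNAs were followed in Jurkat cells, an established human T-cell leukaemia line, with (HuRKO) and without (WT) knockout of HuR. HuR, encoded by ELAVL1, is an RNA-binding protein that attaches to AU-rich and U-rich stretches of mRNA. The 12 libraries form 4 groups of 3, namely HuRKO activated, WT activated, HuRKO at rest and WT at rest. Activated cells of either genotype received PMA at 20 ng/mL with ionomycin at 500 ng/mL, resting cells received neither, and both were kept for 24 h. PMA switches on protein kinase C and ionomycin lets calcium into the cell, which together imitate a signal from the T-cell receptor.

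The 8 genes behaved in different ways. CD69 was 2.01-fold lower in activated HuRKO cells than in activated WT cells, but it rose on activation by a similar factor in both genotypes. CD200 and SLAMF1 were 173-fold and 6.76-fold lower in activated HuRKO cells. SLAMF7 was 3.54-fold higher there, and CD44 and CD160 were switched on in both genotypes with no difference called between them. CD38 fell on activation in WT cells and rose in HuRKO cells. CD109 was higher in HuRKO cells at rest, at a low level (21.4 against 1.98 normalised counts), with no difference called after activation.

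These proteins have different jobs. CD69 is a C-type lectin that appears within hours of stimulation and pulls the lipid receptor S1PR1 from the surface, which holds the cell in the tissue. CD44 binds hyaluronan and marks activated and memory T cells. SLAMF1 and SLAMF7 are self-binding receptors of the SLAM family, and SLAMF1 signals through the small adaptor SAP (SH2D1A). CD200 is a ligand that calms cells carrying CD200R1, and CD160 binds TNFRSF14. CD38 is an enzyme that consumes NAD, and CD109 is a lipid-anchored protein that binds TGF-beta and its receptors.

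The authors' deposited table lists a mean normalised count over the libraries and, for each of 4 comparisons, a log2 fold change with its false discovery rate (FDR). Levels of the 4 groups are normalised counts rebuilt from that mean and the fold changes. Values per library and sequencing depth were not analysed here, so no spread stands beside a level. The FDR carries the replicate error, and with each fold change it sets the largest standard error (SE) that a normal approximation allows, given below as "SE at most". A level below 1 normalised count (3 counts over the 3 libraries of a group) is treated as below the floor. Folds against such a group are given as at least that size. A call is an FDR below 0.05. Every row of the table passed FDR below 0.05 together with a change above 4-fold somewhere among the 4 comparisons, so each of the 8 genes had to differ somewhere. WT activation over rest admitted 7 of them, and CD38 entered through HuRKO over WT at rest. The gene lists below are to be read against the whole table. Between activated genotypes 35.4% of its genes were called lower and 42.2% higher in HuRKO cells, with a median log2 change of 0.36.

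ELAVL1 mRNA stood at 471 in HuRKO against 2552 in WT cells after activation, and at 596 against 4042 at rest. The labels do not say whether the HuRKO cells are a single clone or whether replicates are separate cultures. Loss of HuR and other differences between the cell lines cannot be told apart here. Of 13 T-cell markers 4 had a row (CD2, CD7, CD28 and TRAC), with a summed level of 28016 in activated HuRKO, 26577 in activated WT, 4841 in resting HuRKO and 10655 in resting WT cells. After activation TRAC, the T-cell receptor alpha constant gene, made up most of that sum, at 17916 in HuRKO and 23285 in WT cells. The 4 markers differed in direction, since CD2, an adhesion receptor, was 3.27-fold lower in activated HuRKO cells and the co-stimulatory receptor gene CD28 6.74-fold higher. Markers of other cell types with a row were few, namely KLRD1, NCAM1 and KLRF1 of 7 for natural killer cells, ITGAM and CSF1R of 7 for monocytes, CD79B of 7 for B cells, HBA1 of 5 for erythroid cells and COL1A1 of 6 for epithelial cells and fibroblasts. Their summed levels in the 4 groups ranged from 12.9 to 200.4 for natural killer, 1.10 to 106 for monocyte, 1.41 to 19.8 for B cell, 1.59 to 31.6 for erythroid and 29.3 to 210.0 for COL1A1. Natural killer and monocyte sums were highest in activated HuRKO cells and lowest in resting WT cells. Their members differed between activated genotypes. NCAM1 and CSF1R were called higher in HuRKO cells, KLRF1 lower, and KLRD1 and ITGAM were not called. HBA1, a globin gene, was higher in HuRKO cells in both states, at 31.6 against 1.59 in WT cells after activation (19.9-fold) and 27.8 against 1.63 at rest (17.1-fold). The part of these markers in the results was not tested.

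Because HuR binds AU-rich mRNA, the longest annotated 3′ untranslated region (UTR) of each gene in GENCODE 29 was searched on the sense strand for ATTTA, for TATTTAT, which contains it, and for the U-rich TTTNTTT. Among 19115 coding genes 67.6%, 31.1% and 66.4% held at least 1 match, and the median ATTTA density was 1.48 per kb. CD69 had 5 ATTTA in 995 bases (5.03 per kb) and CD200 had 7 in 1262 bases (5.55 per kb), with 8.50% and 6.79% of genes at a higher density. CD109 followed with 17 in 4683 bases (3.63 per kb), then CD38 with 11 in 4628 (2.38 per kb) and CD44 with 7 in 3069 (2.28 per kb). SLAMF7 had 3 in 1657 bases (1.81 per kb), CD160 had 5 in 2852 (1.75 per kb) and SLAMF1 had 3 in 2648 (1.13 per kb). TATTTAT occurred 3 times each in CD44 and CD109, 2 times in CD69, 1 time each in CD38, SLAMF7 and CD200, and in neither SLAMF1 nor CD160. The U-rich motif had 31 matches in CD109 and none in CD200 or SLAMF7. For the 4 genes with the largest called difference between activated genotypes, 1 ATTTA site each is shown. Each is read 5′ to 3′ on the gene's strand, with ATTTA in capitals. The sites lie at chr12:9753131-9753157 (minus strand, CD69), chr3:112362700-112362726 (plus, CD200), chr1:160610542-160610568 (minus, SLAMF1) and chr1:160754140-160754166 (plus, SLAMF7), all in the 3′ UTR on hg38.
CD69: gtggacttactATTTAttgctgaatga
CD200: ttaaattggatATTTAtatatatatat
SLAMF1: gcttcccaagaATTTAgcttgctgtgc
SLAMF7: attcaatagatATTTAttaagaaccta

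**Figure D1:**
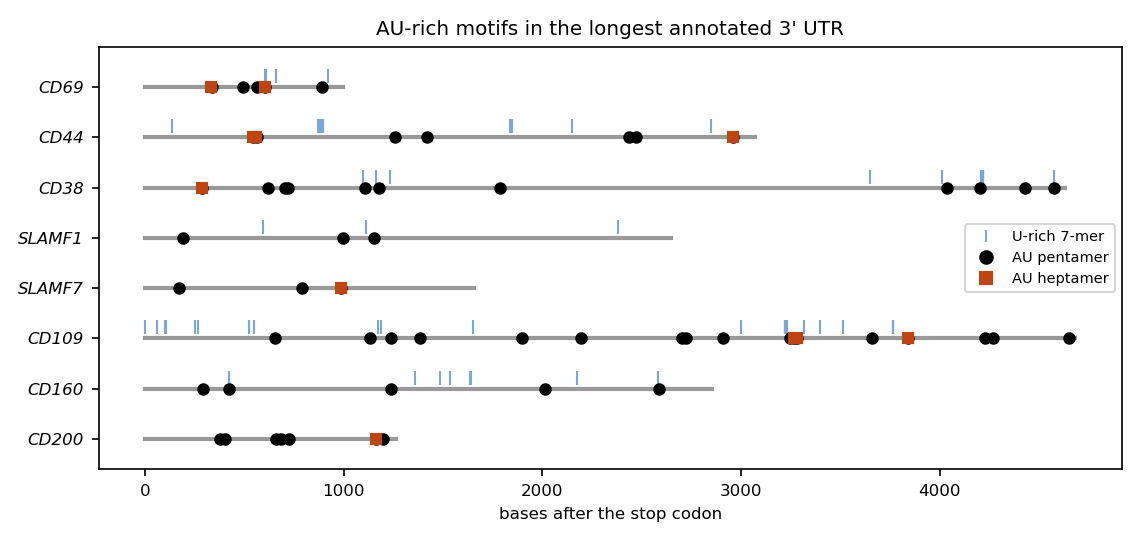
Positions of AU-rich and U-rich motifs along the longest annotated 3′ UTR of each gene, in bases after the stop codon. Black circles mark ATTTA, red squares TATTTAT and blue ticks TTTNTTT, and grey lines give the length, which runs between 995 bases in CD69 and 4683 in CD109.

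CD69 and CD200, with the highest ATTTA densities of the 8 genes, were 2.01-fold and 173-fold lower in activated HuRKO cells, and SLAMF1, with the lowest density, was 6.76-fold lower. No relation between motifs and changes was tested. A match is a run of letters in the reference, not a shown binding site, and which UTR these cells use was not analysed here. Of the 8 genes 6 had a promoter entry in RefSeq (GRCh38.p14, CD44, CD38, SLAMF1, CD109, CD160 and CD200). None of the 6 held TGANTCA on either strand, which occurs in 7.71% of 35116 promoters of the same 300-base length. CD200 held 5 matches to GGAAA, a motif with a median of 1 match and present in 61.2% of promoters.

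**Figure D2:**
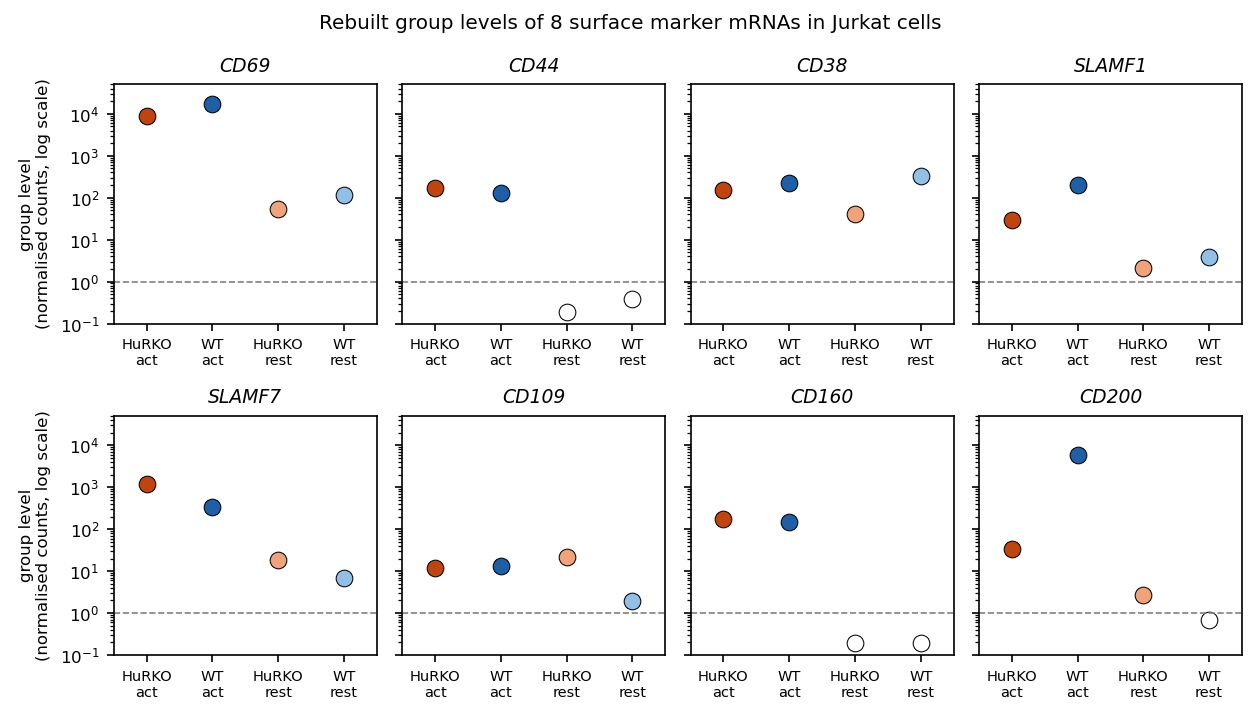
Rebuilt group levels of the 8 mRNAs in normalised counts on a log axis, 1 point per group, in the order HuRKO activated, WT activated, HuRKO at rest and WT at rest. Open points lie below the dashed floor of 1 normalised count, as for CD44 and CD160 at rest, and no error bar is drawn because the levels are group means without a spread.

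CD69 (ENSG00000110848.8, chromosome 12, 9752486 to 9760901, minus strand, hg38) was, per kilobase, the most abundant of the 8 mRNAs after activation. Its level was 8685 in activated HuRKO, 17426 in activated WT, 53.3 in resting HuRKO and 115 in resting WT cells. Per kilobase of annotated exons that is 3067, 6153, 18.8 and 40.5 normalised counts, the first of the 8 in every group but resting WT, where CD38 had 47.9. HuRKO cells were thus lower than WT cells at rest and after activation alike. In bulk RNA, fewer expressing cells and less RNA per cell cannot be told apart. In the authors' deposited table the log2 change of HuRKO over WT was -1.00 after activation (FDR 4.7e-13, SE at most 0.14) and -1.11 at rest (FDR 2.3e-07, SE at most 0.21). CD69 rose 163-fold on activation in HuRKO cells and 152-fold in WT cells, with both FDR listed at 0 in the authors' deposited table. The difference between these responses, HuRKO minus WT, was 0.10 on the log2 scale with a 95% interval no wider than -0.40 to 0.60.

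CD44 (ENSG00000026508.17, chromosome 11, 35138870 to 35232402, plus strand) and CD160 (ENSG00000117281.15, chromosome 1, 145719471 to 145739288, plus strand) were expressed after activation and below the floor at rest in both genotypes. CD44 was at 173 in activated HuRKO and 128 in activated WT cells, which is at least 173-fold and 128-fold above rest. CD160 was at 175 in activated HuRKO and 149 in activated WT cells, at least 175-fold and 149-fold above rest. Neither gene differed by call between activated genotypes. The authors' deposited table gives log2 changes of 0.44 for CD44 (FDR 0.56, SE at most 0.76) and 0.24 for CD160 (FDR 0.73, SE at most 0.70), and the widest 95% intervals these bounds allow run from -1.06 to 1.94 and from -1.14 to 1.62. At rest the changes listed for CD160 and CD44 (-0.03 and -0.99) recur to within 0.001 in 57 and 11 table genes, 54 and 10 of which were below the floor in both resting groups. They carry no measured difference.

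CD160 overlaps RNF115, CD44 overlaps CD44-AS1 and CD109 overlaps AL590428.1 on the opposite strand in GENCODE 29. No source used here names the counting tool or its strand setting, so reads from such partners cannot be set apart. On its own strand CD200 shares 355 bases of exon (11.9% of its exon bases) with the lincRNA AC112487.1, and reads from these bases cannot be assigned to 1 of the 2 genes by strand. CD44 encloses AL133330.1 on its own strand with 0 shared exon bases. None of these partners had a row, and they were not analysed here. PDZK1, 11.3 kb from CD160, was also higher after activation in both genotypes, with levels of 57.5 in activated HuRKO, 47.8 in activated WT, 3.41 in resting HuRKO and 1.97 in resting WT cells.

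SLAMF1 (ENSG00000117090.14, chromosome 1, 160608100 to 160647295, minus strand) and SLAMF7 (ENSG00000026751.16, chromosome 1, 160739057 to 160754821, plus strand) are 91.8 kb apart in the SLAM gene cluster and moved in opposite directions between genotypes. SLAMF1 was at 29.7 in activated HuRKO, 201 in activated WT, 2.07 in resting HuRKO and 3.84 in resting WT cells. SLAMF7 was at 1225 in activated HuRKO, 346 in activated WT, 18.1 in resting HuRKO and 6.83 in resting WT cells. Activation raised both genes in both genotypes, SLAMF1 by 14.4-fold in HuRKO and 52.3-fold in WT cells, and SLAMF7 by 67.8-fold and 50.6-fold.

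After activation the log2 change of HuRKO over WT in the authors' deposited table was -2.76 for SLAMF1 (FDR 3.2e-14, SE at most 0.36) and 1.83 for SLAMF7 (FDR 0.0063, SE at most 0.67). The bound on the error is wider for SLAMF7 although its level per kilobase was higher than that of SLAMF1 in every group (253 against 6.97 in activated HuRKO and 71.5 against 47.1 in activated WT cells). At rest the table listed -0.89 for SLAMF1 (FDR 0.50) and 1.40 for SLAMF7 (FDR 0.17), neither of them called. Of the same cluster, 2 other genes had a row. SLAMF6, another self-binding SLAM receptor, was at 1233 in activated HuRKO and 2387 in activated WT cells, and CD48, the ligand of CD244 and CD2, was at 2474 and 7700. SLAMF1, SLAMF6 and CD48 were thus all lower in activated HuRKO cells while SLAMF7, which lies 27.2 kb from CD48, was higher.

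Of 13 listed genes of the SLAM family and its adaptors 4 had a row. After activation 3 were lower in HuRKO (CD48, SLAMF6 and SLAMF8) and 1 was higher, with a median log2 change of -1.30. Over all table genes 35.4% were lower and 42.2% higher (median 0.36). Activation raised CD48, SLAMF6 and SLAMF8 by more than 4-fold in WT cells. Of table genes that rose 4-fold or more there, 50.6% were lower and 18.1% higher. The 1 higher gene of the list was SH2D1A, which encodes the adaptor SAP. It was at 2958 in activated HuRKO, 480 in activated WT, 1920 in resting HuRKO and 1983 in resting WT cells (log2 change after activation 2.62, FDR 2.5e-77 by the authors' deposited table). Activation thus lowered SH2D1A in WT cells and raised it in HuRKO cells. SLAMF8 was at 37.7 in activated HuRKO and 125 in activated WT cells.

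CD200 (ENSG00000091972.18, chromosome 3, 112332347 to 112362812, plus strand) had the widest gap between genotypes among the 8 genes. Its level was 33.9 in activated HuRKO, 5854 in activated WT, 2.72 in resting HuRKO and below the floor in resting WT cells. Activation raised it by 12.5-fold in HuRKO and at least 5854-fold in WT cells. Activated HuRKO cells thus held 0.578% of the level of activated WT cells. The authors' deposited table gives a log2 change of -7.43 (FDR 6.1e-24, SE at most 0.74), which was number 25 from the lowest of the 2587 table genes. At rest it listed 1.97 (FDR 0.33), with WT below the floor. Per kilobase of exon CD200 was the second of the 8 genes in activated WT cells at 1957 and the sixth in activated HuRKO cells at 11.3.

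BTLA, a neighbouring inhibitory receptor gene 101 kb from CD200, was also lower, at 57.4 in activated HuRKO and 2139 in activated WT cells. PHLDB2, 356 kb away, was higher at 659 and 110. Of 6 listed genes around the CD200 receptor 2 had a row (median log2 change 0.48 between activated genotypes). The receptor gene CD200R1 itself was at 20.3 in activated HuRKO, 17.4 in activated WT, 2.70 in resting HuRKO and 11.9 in resting WT cells. It rose on activation in HuRKO cells (FDR 6.8e-05 in the authors' deposited table) and was not called in WT cells (FDR 0.42). The other, RASA1, which encodes a Ras GTPase-activating protein, was 1.65-fold higher in activated HuRKO cells.

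Around CD160, 6 of 10 listed ligands and partners had a row. Of these 5 were lower in activated HuRKO cells, 0 higher and 1 not called (median log2 change -2.48). Over all table genes 35.4% were lower and 42.2% higher (median 0.36). Activation raised all 6 in WT cells, and of table genes that rose 4-fold or more there 50.6% were lower and 18.1% higher. TNFSF14, which shares the receptor TNFRSF14 with CD160 and BTLA, was at 70.1 in activated HuRKO against 4993 in activated WT cells. BTLA, LTA and HLA-E were 37.3-fold, 8.36-fold and 3.74-fold lower. CD160 itself was not among the genes called in that comparison.

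CD38 (ENSG00000004468.12, chromosome 4, 15778275 to 15853230, plus strand) was the only 1 of the 8 genes that activation lowered in WT cells. Its level was 150 in activated HuRKO, 219 in activated WT, 41.3 in resting HuRKO and 328 in resting WT cells. The order of the groups was resting WT, activated WT, activated HuRKO and resting HuRKO, and each neighbouring pair in it was called. Activation raised CD38 by 3.62-fold in HuRKO cells (log2 change 1.86, FDR 2.0e-16) and lowered it by 1.50-fold in WT cells (-0.58, FDR 0.0034), by the authors' deposited table. The gap between genotypes was 1.47-fold after activation (log2 change -0.55, FDR 0.0066, SE at most 0.20) and 7.94-fold at rest (-2.99, FDR 2.5e-41, SE at most 0.22), in the authors' deposited table. Of 23 listed genes of NAD metabolism 4 had a row, and 2 of these were lower in activated HuRKO cells with 0 higher and 2 not called (median log2 change 0.04). PARP9, an ADP-ribosyltransferase family member, was at 755 in activated HuRKO and 3350 in activated WT cells, and NT5E, the ecto-nucleotidase CD73, at 96.2 and 182.

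CD109 (ENSG00000156535.13, chromosome 6, 73695785 to 73828316, plus strand) was, per kilobase, the least abundant of the 8 genes after activation. Its level was 11.7 in activated HuRKO, 13.3 in activated WT, 21.4 in resting HuRKO and 1.98 in resting WT cells. Resting HuRKO cells were 10.8-fold higher than resting WT cells (log2 change 3.43, FDR 7.6e-05, SE at most 0.87 in the authors' deposited table). Activated genotypes were not called different (-0.18, FDR 0.80, SE at most 0.72 in the authors' deposited table). Activation raised CD109 by 6.70-fold in WT cells (FDR 0.0011), whereas HuRKO cells were not called, with a log2 change of -0.87 (FDR 0.13) in the authors' deposited table. Among 22 genes listed around TGF-beta and its receptors, 4 had a row, 2 lower, 1 higher and 1 uncalled when activated HuRKO cells were set against activated WT cells (median log2 change -0.99). After activation SMAD6, an inhibitor of this signalling, was at 275 in HuRKO against 110 in WT cells, the co-receptor TGFBR3 at 15.6 against 50.1 and the ligand TGFB2 at 4.53 against 16.5.

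**Figure D3:**
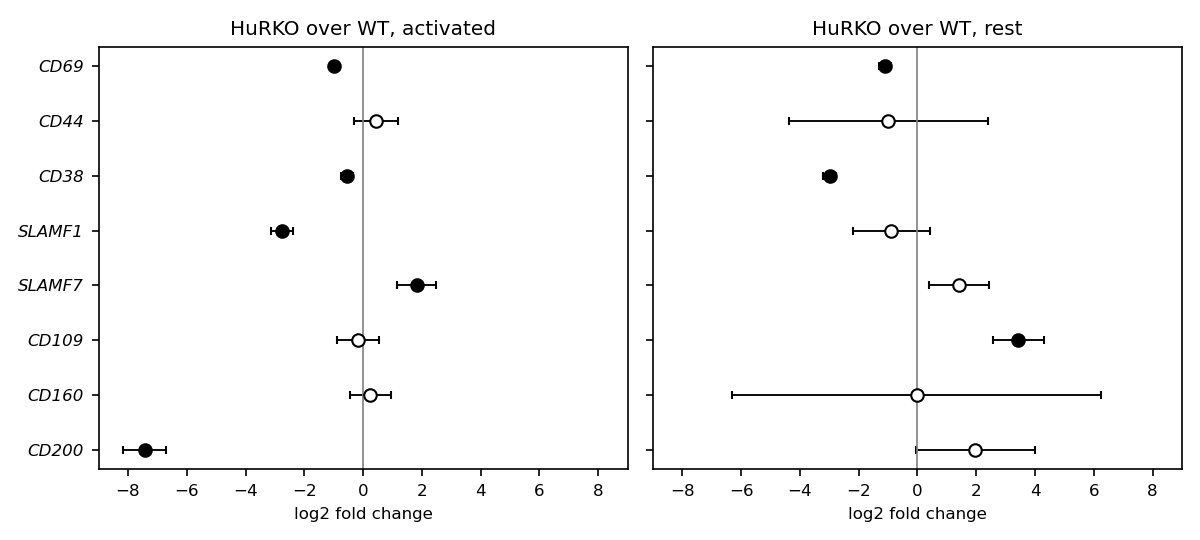
Log2 fold change of HuRKO over WT for each gene after activation (left) and at rest (right), from the authors' deposited table. Filled points have FDR below 0.05 and bars span the largest standard error that the FDR allows to either side, so that the wide bars of CD44 and CD160 at rest belong to levels below the floor.

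Counted over the 8 genes, HuRKO over WT after activation gave 4 lower (CD69, CD38, SLAMF1 and CD200), 1 higher (SLAMF7) and 3 not called, while 77.6% of all table genes were called, 35.4% lower and 42.2% higher. At rest 2 were lower (CD69 and CD38) and 1 higher (CD109), against 40.5% of table genes called, 15.4% lower and 25.0% higher. Activation raised 7 and lowered 0 in HuRKO cells, where 76.7% of table genes were called, 58.1% higher and 18.5% lower. It raised 7 and lowered 1 in WT cells, where 73.9% were called, 52.0% higher and 21.8% lower. The shares of members called after activation and at rest (5 and 3 of 8) lay near those of the table. Between activated genotypes, 50.6% of table genes that rose 4-fold or more in WT cells were lower in HuRKO cells and 18.1% higher. That set, chosen on the same activated WT libraries, holds 7 of the 8 genes. The median log2 change of the 8 genes on activation was 4.96 in HuRKO and 6.48 in WT cells, against 1.45 and 1.42 over all table genes. With levels below the floor raised to it, these medians were 4.96 and 6.35, against 1.38 and 1.29. The 8 genes were picked as activation markers and 7 of them entered the table through WT activation, so the selection itself favours high medians.

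**Figure D4:**
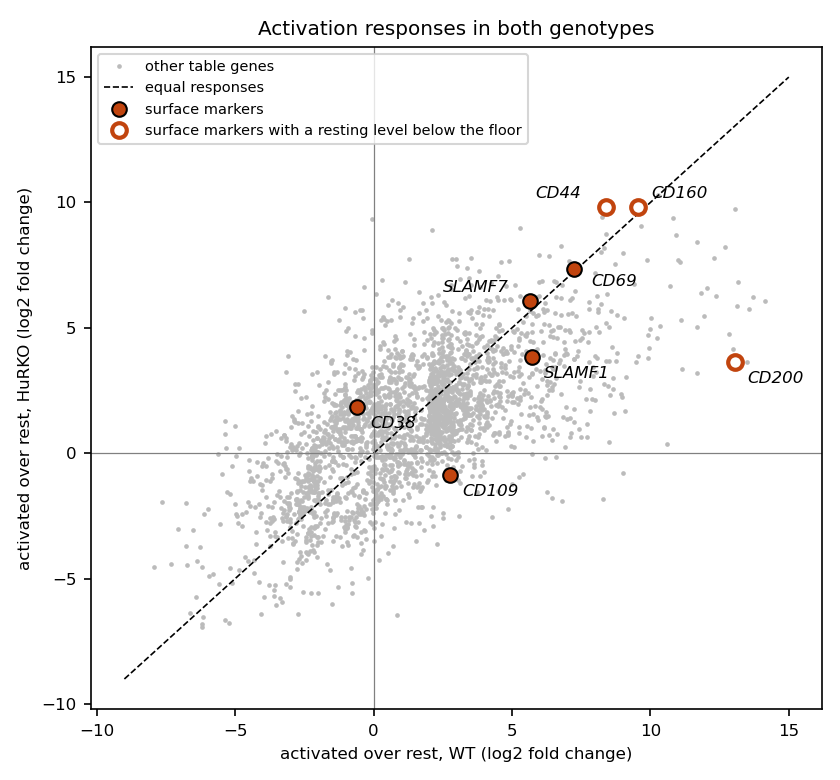
Log2 fold change on activation in WT cells (horizontal) and in HuRKO cells (vertical) for the 2587 table genes, with the 8 surface marker genes in red and equal responses on the dashed line. Values are as the authors list them, and open points (CD44, CD160 and CD200) rest on a resting level below the floor, so that their positions are not exact. CD69 lies close to the line, CD200 far below it, and CD38 sits at -0.58 and 1.86.

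Whether the activation responses differed between genotypes was tested with a conservative bound, since the authors' deposited table holds no such test. The largest SE allowed by each FDR was propagated to the difference of the responses, and the 2-sided p was scaled up by a factor of 58780, the number of GENCODE 29 genes. By this bound 523 table genes (20.2%) had a difference, with 9.78% of the table responding higher and 10.4% lower in HuRKO cells, and 2 of the 8 were among them, a share near that of the table. The CD38 response was 2.44 higher in HuRKO than in WT cells on the log2 scale (SE at most 0.30, adjusted p at most 3.1e-11). For CD200 the listed values give -9.40 (SE at most 1.57, adjusted p at most 1.2e-04), which rests on a resting WT level below the floor, and with that level at the floor the difference was -8.88. The CD200 call depends on how the bound is formed, because with the other pairing of comparisons the adjusted p was at most 0.69. For CD109 the difference was -3.62 (SE at most 1.02) and for SLAMF1 -1.86 (SE at most 0.90), neither past the threshold. For SLAMF7 it was 0.42 with an SE of at most 0.98, a bound too wide to show that the responses were alike. CD44 and CD160 lay below the floor in both resting groups, so the difference of their responses was not measured, and neither was called.

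Other surface proteins of activated T cells were compared next. Of 46 listed symbols 23 had a row, and HuRKO over WT after activation gave 17 lower, 2 higher and 4 not called. The listed symbols CD97 and ADGRE5 name the same gene, which had its row as ADGRE5. The 23 genes are described here. Their median log2 change was -1.76, against 0.36 over all table genes. For comparison, 1157 table genes rose by 4-fold or more in WT cells, and HuRKO over WT after activation gave 50.6% of them lower and 18.1% higher, a set chosen on the same activated WT libraries. The members with the largest changes were BTLA, the ligand PD-L1 gene CD274, the co-stimulatory receptor TNFRSF9 (4-1BB) and CD27. CD274 was at 15.1 in activated HuRKO and 501 in activated WT cells, TNFRSF9 at 163 and 4446, and CD27 at 101 and 1264. The 2 higher genes were CD28 at 9052 and 1342 and CD40LG (CD40 ligand) at 548 and 133, the second named after its values were seen. IL2RA, the high-affinity IL-2 receptor chain, was not called at 251 and 187.

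**Figure D5:**
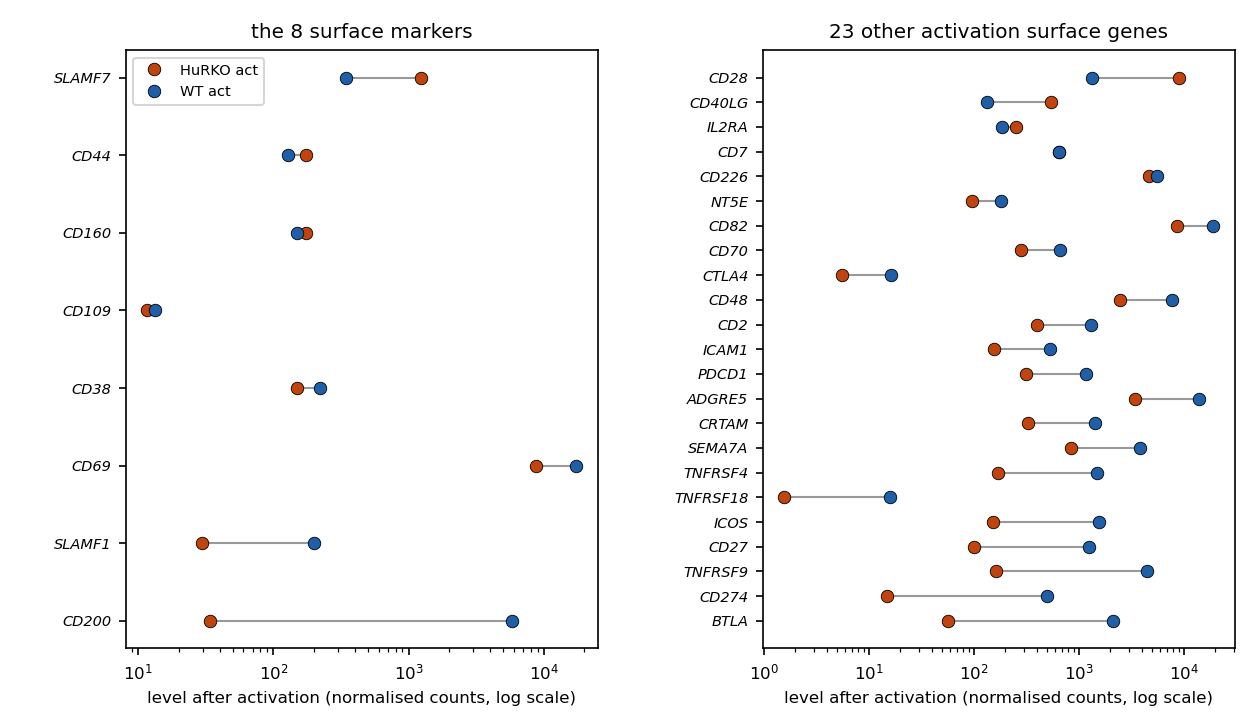
Levels after activation in HuRKO (red) and WT (blue) cells for the 8 surface marker genes (left) and for the 23 other activation surface genes with a row (right), in normalised counts on log axes and sorted by their ratio. In the right panel 17 genes were called lower in HuRKO cells and CD28 and CD40LG higher, and the points of CD7 coincide.

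Genes tied to the function of CD69 went in both directions after activation. Of 18 listed partners 8 had a row, with 5 higher, 2 lower and 1 not called in activated HuRKO cells (median log2 change 1.38). Over all table genes 42.2% were higher and 35.4% lower. The 2 lower partners were FOXO1, at 169 in activated HuRKO and 467 in activated WT cells, and CCR7, at 148 and 211. S1PR1, the receptor that CD69 removes from the surface, was at 256 in activated HuRKO, 19.7 in activated WT, 136 in resting HuRKO and 66.9 in resting WT cells. Its regulator KLF2 was at 34.2 in activated HuRKO, 7.99 in activated WT, 153 in resting HuRKO and 64.0 in resting WT cells. Both were higher in HuRKO cells in both states, where CD69 was lower. S1PR4 was at 14.4 in activated HuRKO cells and below the floor in activated WT cells, and LGALS1, a galectin that binds surface sugars, was at 3468 and 635.

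Of 30 listed transcription factors that act on the CD69 gene 17 had a row. After activation 8 were lower, 5 higher and 4 not called in HuRKO cells (median log2 change -0.29). EGR3 was at 117 in activated HuRKO and 1472 in activated WT cells, GATA3 at 4812 and 851, ETS1 at 15242 and 2912 and MYB at 10129 and 1963. Activation raised 16 of the 17 in HuRKO and 12 in WT cells, against 58.1% and 52.0% of all table genes. Every table gene had to change by more than 4-fold somewhere. Of 20 listed neighbours of CD69 in the natural killer gene complex on chromosome 12, 7 had a row. Against the same table shares, activation raised all 7 of these neighbours in both genotypes. KLRC1, KLRF1, KLRK1 and KLRF2 lay below the floor in both resting groups, and CLEC12A in resting HuRKO cells. Genes below the floor at rest could enter the table only through their activated levels, so the filter favours a rise. Between activated genotypes the median log2 change of the 7 neighbours was -0.22. In HuRKO cells 3 of the 7 were lower, among them KLRK1 (NKG2D) at 9.88 against 70.8 in WT cells. The 1 higher neighbour was KLRF2, at 31.7 against 3.93. CLEC2B, 92.1 kb from CD69, was at 840 in activated HuRKO and 978 in activated WT cells and was not called (FDR 0.24 in the authors' deposited table).

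For CD44, 4 of 26 listed ligands, linkers and proteases had a row, 2 higher, 1 lower and 1 not called in activated HuRKO cells (median log2 change 0.80). SRGN, a proteoglycan core protein, was at 390.1 in activated HuRKO cells against 2434 in activated WT cells. The protease gene MMP9 was higher at 141 against 45.8 and the linker gene ANK2 at 56.4 against 10.5.

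Likeness of pattern was measured as the largest absolute difference over the 4 log2 changes, which rest on the 4 group levels, among genes with a mean level of at least 10. The 5 genes nearest to CD69 were JAM2, OCSTAMP, ITGAX, HCAR1 and MMP10, at distances of 0.90, 0.99, 1.08, 1.25 and 1.26 log2 units. HCAR1 was at 960 in activated HuRKO, 1499 in activated WT, 8.46 in resting HuRKO and 23.5 in resting WT cells. The other 4 lay below the floor in resting HuRKO cells, so their distances are uncertain, and with levels below the floor raised to it 3 of the 5 (JAM2, ITGAX and HCAR1) were again among the nearest. Nearest to CD200 were SDC4 at 0.54 and IL2 at 0.58, but CD200 and SDC4 lay below the floor in resting WT cells, and with such levels raised to the floor the distances were 0.54 and 0.98. SDC4 was at 47.3 in activated HuRKO and 5668 in activated WT cells, and IL2 at 61.8 and 16006. The nearest to CD38 were ADGRE1 at 0.57 and HPGD at 0.68, and those to SLAMF1 were TMEM140 at 0.57 and IL13 at 0.70. TMEM140 was below the floor in resting HuRKO cells, and with levels raised to the floor IL13 was no longer among the 2 nearest. For CD109 they were KALRN at 0.92 and DENND5B at 0.97. For SLAMF7 the rule gave CUX2 and MAF, both below the floor in both resting groups, and neither was among the 2 nearest with levels raised to it. For CD44 it gave CD160 and ZNF683, and for CD160 KRT79 and CD44. CD44, CD160 and KRT79 were below the floor in both resting groups, so their distances were not measured.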

How the data were processed

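Per the labels' protocols, poly(A) RNA was extracted with RiboZol and made into directional NEBNext Ultra libraries. TopHat, Bowtie2 and the hg38 build are named, per the submitters' processing notes. Neither counter nor test is named in these sources. The deposited table gives a mean normalised count, which is a signal averaged by the authors, log2 fold changes, and FDR values, which are p-values adjusted by the authors. The header states no log base. Base 2 is inferred, since rebuilt resting WT levels below the floor gather in steps on it (up to 30.6% inside a window 10% wide, 5.34% on base e and 2.03% on base 10). The 4 changes close to within 1e-09, and 2577 IDs matched GENCODE 29 without the version. Unmapped columns of per-sample values numbered 0.

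Levels assume equal groups of 3. An SE bound is the absolute change divided by the normal quantile of its FDR, with 37 used where FDR is listed at 0, and the smaller of 2 sums was used for the difference of responses. The bound assumes a normal test, which was not checked near the floor. It was also run on simulated estimates, but these were drawn with normal error, so that run does not check the assumption. The depth per sample is unknown, and floors cover counting error only.

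The genes and lists were chosen with earlier results of these data known. Named genes are the 8 members, the nearest patterns (5 for CD69, 2 for each other member, no clone names or pseudogenes), up to 4 called genes with the largest change per list and comparison, the cell type markers with a row, and ELAVL1. CD40LG, CLEC2B, PDZK1 and PHLDB2 fall outside this rule and were chosen after their values were seen. Python 3.11.15, pandas 2.3.3 and scipy 1.17.1 were used. Alternatives were a stricter FDR, a 2-fold minimum, another bound, multiplier, log base, floor and measure of likeness, and, chosen after seeing the data, levels below the floor raised to it. Protein sequences were not used here.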

Additional observations from a re-analysis of the deposited data

Results flagged for a closer look

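The activation response of CD38 differed between genotypes by 2.44 on the log2 scale, HuRKO minus WT (adjusted p at most 3.1e-11 by the conservative bound). For CD200 the listed values give -9.40 (adjusted p at most 1.2e-04), and -8.88 with its resting WT level, which is below the floor, raised to it. The second result was lost when the variance was taken from the other pairing of comparisons (adjusted p at most 0.69). Both were picked out because the effect of activation was not the same in the 2 genotypes.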

How the results depend on the processing

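The 8 genes had 23 calls in the 4 comparisons, and with FDR below 0.01 all 23 stood. With a minimum of 2-fold 21 stood and 2 were lost, both for CD38 (after activation between genotypes, and on activation in WT cells), where the changes are below 2-fold. The number of genes whose activation responses differed was 2, and 1 with the larger sum of variances, which lost CD200 (adjusted p at most 0.69). It stayed at 2 with p multiplied by the genes of the table and with a threshold of 0.01. Of 32 levels 5 lay below the floor, 8 with a floor of 9 counts over a group and 10 if the fold changes were on base e. Of the 5 genes nearest to CD69, 5 were shared with Euclidean distance and 4 without a minimum mean level, and 3 with levels below the floor raised to it, an alternative chosen after seeing the data. No paired analysis was possible because the table holds no values per library, and for the same reason no replicate could be left out. The depth is unknown, and a fold against CD44 and CD160 at rest, or against CD200 in resting WT cells, is only a lower bound. With the floor of 9 counts SLAMF1 and CD200 in resting HuRKO cells and CD109 in resting WT cells also fall below it. CD109 was then at least 7.13-fold higher in HuRKO than in WT cells at rest and rose at least 4.42-fold on activation in WT cells.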
